A study of Mus musculus with 12 samples.

Results

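The TWEAK receptor and genes of the NF-kB response, 10 in all, were followed across Setd2 knockout (KO) and wild-type (WT) mouse liver and liver tumors. They are Tnfrsf12a, which encodes the receptor of the cytokine TWEAK, with Tnfrsf1b, Tnfaip3, Nfkbia, Nfkb2, Relb, Birc3, Traf1, Il1b and Ltb. The 10 genes were taken by name from the 24553 entries of each deposited expression table. Tnfrsf1b is listed in 2 entries, and the entry with the higher mean was used, at 7.96 FPKM over the 12 libraries against 4.70 FPKM for the entry left out. The list was selected on the FPKM values of Tnfrsf12a, which was among the genes with the largest fall in KO against WT normal liver. The other 9 were listed with it as genes of the NF-kB response, when results of these data were known. Values of Tnfrsf12a in that comparison, and in those that use the same liver libraries, are therefore given as a description without a test, and Tnfrsf12a is left out of the counts of called genes there.

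The libraries fall into 4 groups of 3. Setd2 KO normal liver came from untreated male mice aged 8 months. WT normal liver came from untreated male mice of the same age. Setd2 KO tumors and WT tumors were liver tumors of mice that had received the liver carcinogen diethylnitrosamine (DEN) as males at the age of 2 weeks, in 1 intraperitoneal dose of 25 mg/kg, and were kept for 8 months. Setd2 encodes the enzyme that trimethylates lysine 36 of histone H3. The titles of the KO samples use the abbreviation cKO, and the labels name neither the exons deleted nor the cell type in which the deletion took place. Strain is likewise not given, and the labels do not say whether each library came from its own mouse, so p-values measure the spread between these libraries. Because every tumor group received DEN and no normal liver did, tumor and DEN exposure cannot be told apart.

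NF-kB transcription factors are held inactive in the cytoplasm by inhibitors such as IκBα, the product of Nfkbia, until receptors of the TNF and IL-1 families trigger their release. TWEAK binds its receptor Fn14, the product of Tnfrsf12a, which recruits TRAF and IAP proteins and can activate both the canonical pathway and the noncanonical pathway, in which the Nfkb2 product is processed and pairs with RelB. Many genes of these pathways are themselves transcribed by NF-kB, so that Nfkbia and Tnfaip3 form negative feedback loops. In injured liver, Fn14 is known from hepatocytes and from progenitor cells of the bile duct lineage.

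A match to the 10-letter kB motif, the consensus site of NF-kB, was found in 4 of the 9 genes with a promoter sequence, in a window from 250 bases before to 50 bases after the start of transcription. They are Tnfaip3, Nfkbia, Nfkb2 and Ltb. Both strands were searched, and the motif was found in 6.3% of the windows of 8345 tested genes and in 5.14% of those of all 27025 genes. A match is a description of the sequence and was not tested as a binding site. The sequences below come from RefSeq, build GRCm38.p6, and are written 5′ to 3′ on the strand of the gene, upstream of its first listed start site. Bases in annotated exons were left out, and for Nfkb2 only 30 bases around the site are given. Capitals mark the kB matches, and Tnfrsf12a is shown beside them as the gene with the largest difference between the liver groups and no match in its window.
Tnfaip3, chr10:19015411-19015540, minus strand: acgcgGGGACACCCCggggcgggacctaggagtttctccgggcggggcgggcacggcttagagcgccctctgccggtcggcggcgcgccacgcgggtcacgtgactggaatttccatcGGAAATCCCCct
Nfkbia, chr12:55492648-55492777, minus strand: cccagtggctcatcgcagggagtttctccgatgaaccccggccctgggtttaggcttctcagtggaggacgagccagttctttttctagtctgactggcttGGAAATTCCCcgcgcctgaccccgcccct
Nfkb2, chr19:46304688-46304717, plus strand: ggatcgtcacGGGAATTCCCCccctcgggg
Ltb, chr17:35194377-35194438, plus strand: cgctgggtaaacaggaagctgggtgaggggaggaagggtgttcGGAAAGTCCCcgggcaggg
Tnfrsf12a, chr17:23677469-23677579, minus strand: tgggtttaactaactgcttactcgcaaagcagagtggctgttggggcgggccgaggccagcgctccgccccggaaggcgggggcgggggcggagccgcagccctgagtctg
The matches lay close to the start in 3 of the genes, at bases 29 to 20 before it in Nfkbia, 39 to 29 in Nfkb2 and 12 to 3 in Tnfaip3. Tnfaip3 had another match at bases 125 to 116, and the match of Ltb lay at bases 87 to 78. In Nfkb2 the capitals cover 2 matches that overlap by all but 1 base, another match at bases 11 to 2 lies outside the 30 bases shown, and the windows of its other listed start sites held further matches.

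Expression is given in FPKM (sequenced fragments per kilobase of transcript, relative to all mapped fragments of the library), a level per length that allows genes to be compared. Read counts are not in the tables, so the depth behind the values is unknown. FPKM values summed to 641848 to 719538 in the livers and to 423498 to 626303 in the tumors. An entry was tested when it reached 1 FPKM in at least 3 libraries, which left 11671 entries and 9 of the 10 genes. Changes are differences of log2(FPKM + 1) ± SE from limma with p-values adjusted over all 11671 entries, and calls were made below an adjusted p of 0.05. Rescaling every library to a common sum moved the median change of all genes, for tumor against liver, from -0.02 to 0.36 in KO mice and from -0.04 to 0.23 in WT mice. It also turned the split of higher and lower calls from 1061 and 603 into 1791 and 281 in KO, and from 935 and 1046 into 1660 and 408 in WT. Between KO and WT tumors the median moved from 0.02 to 0.12, and median-of-ratios scaling gave 4 higher and 10 lower calls in place of 4 and 5. Setd2 itself was at 1.66, 1.93 and 1.32 FPKM in KO livers, against 4.84, 3.84 and 4.70 FPKM in WT livers (log2 change -1.05 ± 0.14, adjusted p = 0.0108). KO tumors had 3.14, 2.18 and 1.90 FPKM of Setd2, against 4.40, 3.61 and 4.07 FPKM in WT tumors, a difference that was not called (-0.57 ± 0.19, adjusted p = 0.188) although the groups did not overlap. Hepatocyte markers were present in every library, with 12 genes that summed to 30400 to 35800 FPKM in KO livers, 33900 to 37700 in WT livers, 16900 to 31400 in KO tumors and 39800 to 48500 in WT tumors. Apoa1 carried the high sums of WT tumors, at 27200, 19900 and 21900 FPKM, against 8810 to 11300 FPKM in WT livers. Of the 12 genes, 2 lay higher in every WT tumor than in every WT liver and 5 lay lower, against 18.5% and 23.8% of all 11671 entries. KO tumors resembled each other least, with Pearson's r across genes of 0.924 to 0.942.

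**Figure D1:**
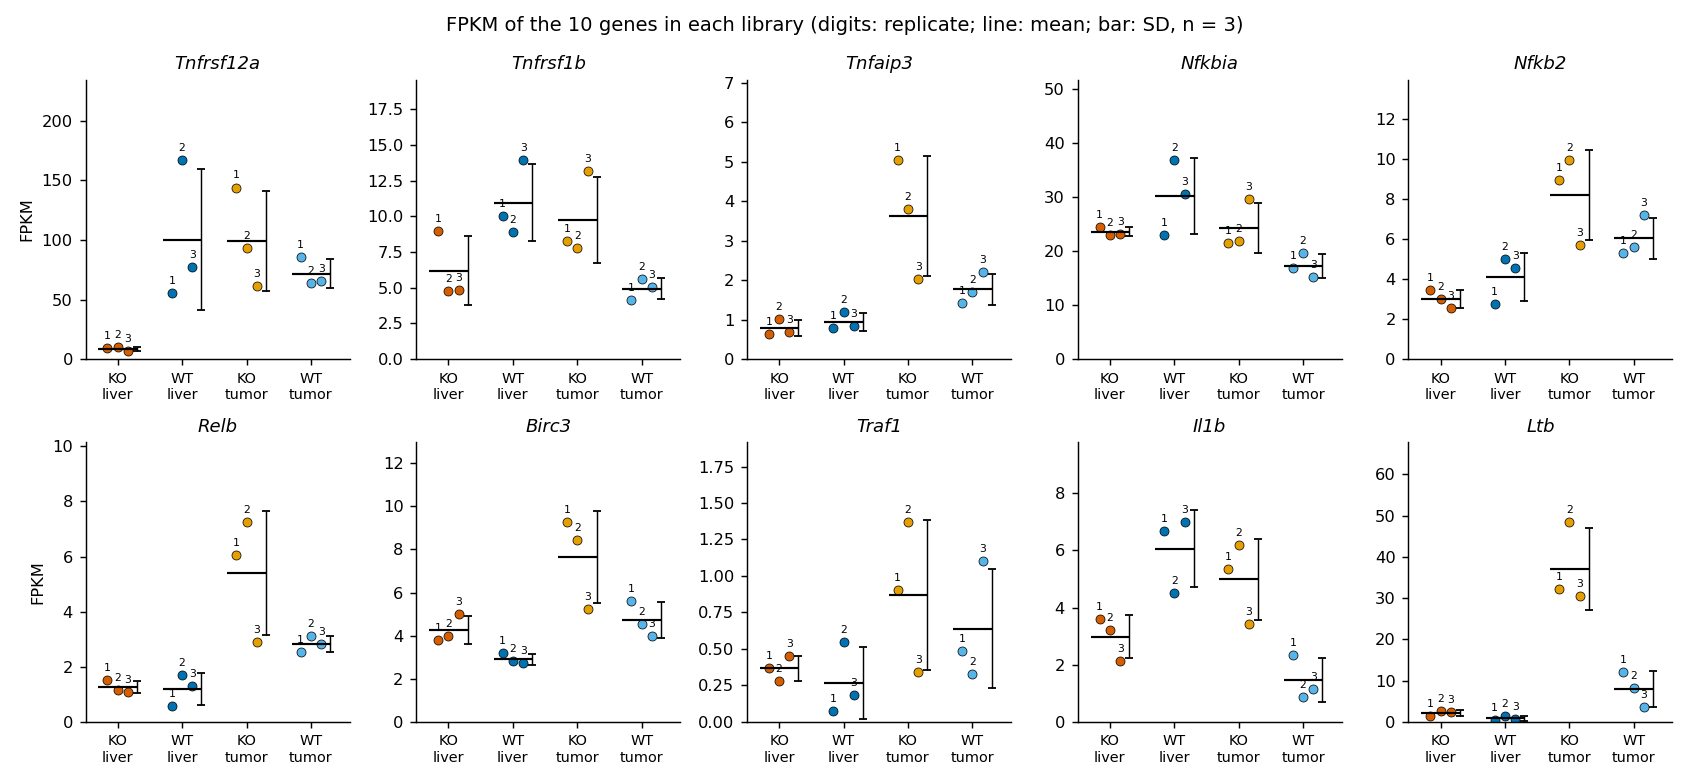
FPKM of each of the 10 genes (vertical axes, 1 panel per gene) in the 12 libraries, by group (horizontal axes); digits give the replicate, lines the mean and bars the SD of 3 libraries. KO livers hold the lowest Tnfrsf12a values (6.86 to 10.1 FPKM), and KO tumors hold the highest Ltb values (30.5 to 48.4 FPKM).

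The TWEAK receptor gene Tnfrsf12a (chromosome 17, 23675445 to 23677468, minus strand, GRCm38) was the most abundant of the 10 genes, with a mean of 70.0 FPKM over the 12 libraries. It was low in KO normal liver, and the other groups overlapped with each other. KO livers had 9.24, 10.1 and 6.86 FPKM, against 55.5, 168 and 77.6 FPKM in WT livers. Every KO liver lay below every WT liver, and WT liver 2 stood above the other WT livers. The means were 8.73 ± 1.67 FPKM in KO livers and 100.2 ± 59.3 FPKM in WT livers (SD, n = 3 each), an 11.5-fold lower mean and a log2 change of -3.24 ± 0.38. Leaving out each library in turn moved this value between -3.58 and -2.79. KO tumors had 144, 93.2 and 60.9 FPKM, against 86.0, 63.9 and 65.2 FPKM in WT tumors. The tumor groups overlapped, since KO tumor 3 was the lowest of the 6 tumors, and the change of 0.39 ± 0.33 was not called (adjusted p = 0.584). KO tumors lay 11.4-fold above KO livers in their means (log2 change 3.30 ± 0.32), and each KO tumor exceeded each KO liver. WT tumors overlapped with WT livers (-0.33 ± 0.38), and this small change turned to 0.11 without WT liver 2. The KO effect in tumors minus that in normal liver was 3.63 ± 0.54 on the log2 scale.

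Tnfrsf1b (chromosome 4, 145213463 to 145246870, minus strand) encodes TNF receptor 2, which binds TNF and recruits TRAF2. It was lower in WT tumors than in WT livers. KO livers had 9.0, 4.79 and 4.81 FPKM, against 10.01, 8.88 and 13.99 FPKM in WT livers. KO liver 1 overlapped with the WT livers, and the change was not called (-0.76 ± 0.26, adjusted p = 0.0793), but it was without KO liver 1 (-1.02, adjusted p = 0.0262). KO tumors had 8.31, 7.75 and 13.2 FPKM, against 4.14, 5.58 and 5.07 FPKM in WT tumors. These groups did not overlap, and the change of 0.83 ± 0.23 missed the threshold (adjusted p = 0.142). Between WT tumors and WT livers Tnfrsf1b fell by 0.997 ± 0.186 on the log2 scale (adjusted p = 0.0163), with no overlap. This call was lost without WT liver 3 (adjusted p = 0.0518). KO tumors overlapped with KO livers (0.59 ± 0.29, adjusted p = 0.195). The KO effect in tumors minus that in livers was 1.59 ± 0.36, just short of the threshold at an adjusted p of 0.0502. It passed without KO liver 1 (adjusted p = 0.0288) or KO tumor 3 (adjusted p = 0.0322). It also passed with libraries rescaled to a common sum (1.79, adjusted p = 0.0358) and with a pseudocount of 0.1 (adjusted p = 0.04999). The entry left out gave 1.62 ± 0.40 (adjusted p = 0.0606), and the sum of both entries, an alternative chosen after the data were seen, gave 1.73 (adjusted p = 0.0488).

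Ltb (chromosome 17, 35194439 to 35196320, plus strand) encodes lymphotoxin beta, a membrane ligand made mainly by lymphocytes that signals through the lymphotoxin beta receptor. Of the 10 genes it varied most between groups: its highest group mean, in KO tumors, was 46.5-fold its lowest, in WT livers. KO tumors had 32.1, 48.4 and 30.5 FPKM, against 12.2, 8.14 and 3.6 FPKM in WT tumors. KO livers had 1.38, 2.68 and 2.44 FPKM, against 0.363, 1.38 and 0.641 FPKM in WT livers. KO tumors, WT tumors and KO livers followed each other in that order with no overlap, while the lowest KO liver and the highest WT liver were at the same level. Ltb rose in tumors over normal liver in KO mice (3.58 ± 0.25, adjusted p = 0.00364) and in WT mice (2.23 ± 0.39, adjusted p = 0.0139). The call in KO mice was kept in each of the 6 fits that left out a library, and that in WT mice was lost without WT liver 3 (adjusted p = 0.0637). Between KO and WT tumors the difference of 2.18 ± 0.40 did not pass the threshold (adjusted p = 0.0783), nor did that of 0.83 ± 0.25 between KO and WT livers (adjusted p = 0.0571). The liver difference passed without KO liver 1 (1.03, adjusted p = 0.0363). The KO effects in tumor and in liver were not shown to differ (1.35 ± 0.51, adjusted p = 0.153).

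Il1b (chromosome 2, 129364570 to 129371139, minus strand) encodes interleukin 1 beta, a cytokine made mainly by activated macrophages and monocytes. It was lower in KO than in WT livers and highest in WT livers and KO tumors. KO livers had 3.6, 3.21 and 2.13 FPKM, against 6.67, 4.51 and 6.99 FPKM in WT livers. KO tumors had 5.36, 6.18 and 3.43 FPKM, against 2.35, 0.876 and 1.15 FPKM in WT tumors. In liver every KO library lay below every WT library, and in tumors every KO library lay above every WT library. In livers Il1b fell by 0.83 ± 0.21 (adjusted p = 0.0388), a call that was lost without KO liver 2 (0.0794), KO liver 3 (0.0950), WT liver 1 (0.0919) or WT liver 3 (adjusted p = 0.125). It was also lost without a filter on low values (adjusted p = 0.0704) and in a fit that drew its spread from all 12 libraries (adjusted p = 0.0699). In tumors the difference of 1.30 ± 0.28 was not called (adjusted p = 0.102). The test of the difference between these effects passed, at 2.13 ± 0.37 (adjusted p = 0.0275), and was lost in 7 of the 12 fits that left out a library, with adjusted p of up to 0.0818. These were the fits without KO liver 2 or 3, WT liver 2 or 3, KO tumor 1, or WT tumor 2 or 3. Without a filter on low values it was lost too (adjusted p = 0.0587). In WT mice Il1b fell by 1.55 ± 0.25 in tumors relative to liver (adjusted p = 0.0116; 0.0558 without WT liver 3). In KO mice tumor and liver differed by 0.58 ± 0.24 (adjusted p = 0.142), which became a call without KO tumor 3 (0.78, adjusted p = 0.0459). The libraries keep no strand and the annotation has the antisense gene Il1bos over exons of Il1b, so their reads cannot be told apart.

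Ltb and Il1b are genes of immune cells, and in whole tissue fewer cells of a type and less RNA per cell cannot be told apart. Of the immune cell markers, those of neutrophils and monocytes and some of those of macrophages were higher in KO tumors, while T and NK cell markers varied between libraries. Macrophage and Kupffer cell markers (14 genes) summed to 664 to 898 FPKM in KO tumors, 207 to 575 in WT tumors, 294 to 412 in KO livers and 303 to 475 in WT livers. In KO tumors 7 of the 14 lay above all WT tumors and 8 above all KO livers. Of all 11671 tested genes, 13.8% and 21.3% did so. In KO tumors the complement genes C1qa, C1qb and C1qc and Lyz2 were among the largest parts of the sum. C1qa was at 102 to 201 FPKM in KO tumors and 47.3 to 60.6 FPKM in KO livers. The largest part in KO tumor 3 was Cd5l, at 140 FPKM, against 25.9 and 5.85 FPKM in KO tumors 1 and 2. Cd5l was at 31 to 49.3 FPKM in KO livers. Clec4f and Vsig4, genes of resident Kupffer cells, were low in 2 of the tumors of each genotype. Clec4f was at 12.5, 2.55 and 89.7 FPKM in KO tumors and at 32.1 to 48.6 FPKM in KO livers. WT tumors had 54.5, 10.5 and 11.8 FPKM of Clec4f, against 37 to 51.5 FPKM in WT livers. Vsig4 was at 9.37, 2.05 and 41.2 FPKM in KO tumors and at 22.8 to 25.7 FPKM in KO livers. WT tumors had 32, 5.98 and 8.37 FPKM of Vsig4, against 20.3 to 28.1 FPKM in WT livers. The 9 neutrophil and monocyte markers summed to 115 to 348 FPKM in KO tumors, 31.1 to 37.2 in WT tumors, 30.1 to 75.4 in KO livers and 15.7 to 40.4 in WT livers. All 9 lay higher in every KO tumor than in every WT tumor, against 13.8% of all tested genes. Of the 9, 7 were among the tested genes. Most of the sum in tumors came from Ly6c2, which is listed in 1 entry together with Ly6a, so its own level cannot be read. That entry was at 81.4, 88.6 and 287 FPKM in KO tumors, against 21.5, 19 and 27.2 FPKM in WT tumors. T and NK cell markers (12 of 13 matched) summed to 7.23 to 41.3 FPKM in KO tumors and 5.07 to 21.2 in WT tumors. Their sums were 4.74 to 7.37 FPKM in KO livers and 2.62 to 5.89 in WT livers. In KO tumors 1 of the 12 lay above all WT tumors, against 13.8% of all tested genes, and 4 of the 12 were tested. By library the T and NK sums were 13.2, 41.3 and 7.23 FPKM in KO tumors, against 6.85, 5.07 and 21.2 FPKM in WT tumors, so that the groups overlapped. KO tumor 3 had the lowest T and NK sum among the KO tumors (7.23) and the lowest Il1b of that group. Its neutrophil and monocyte sum was the highest (348), with 287 FPKM of it from the joint entry of Ly6a and Ly6c2. B and plasma cell markers (8 genes) summed to 13.3 to 22.4 FPKM in KO tumors, 28.6 to 63.8 in WT tumors, 5.88 to 11.8 in KO livers and 2.97 to 6.05 in WT livers, so that KO tumors lay below WT tumors and above all livers. Most of the sum in WT tumors came from Jchain, a plasma cell gene, at 16.3, 3.93 and 8.73 FPKM in KO tumors, against 29.8, 21 and 53.9 FPKM in WT tumors. The B cell genes Cd79b (means 2.19 and 1.66 FPKM) and Cd22 (1.09 and 0.482 FPKM) averaged higher in KO than in WT tumors. A B cell marker was at 0 in all WT livers, and no other gene of these lists was at 0 throughout a group. The part of these cells in the Ltb and Il1b values was not tested.

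**Figure D2:**
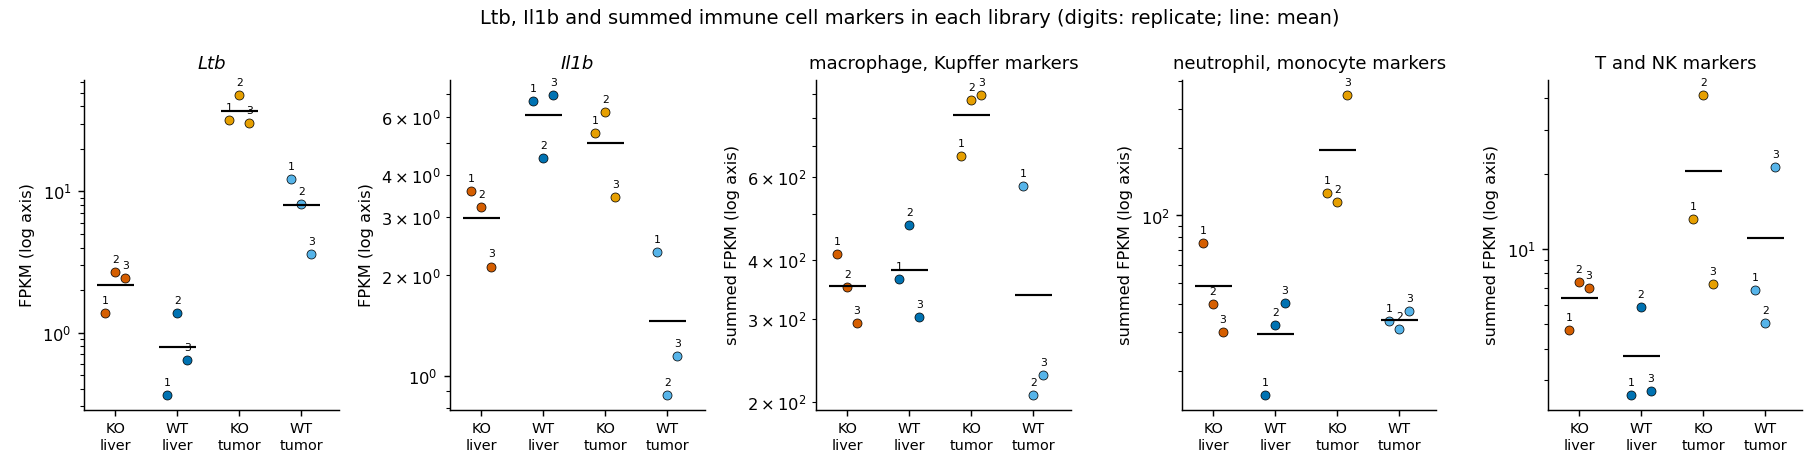
FPKM of Ltb and Il1b and summed FPKM of 3 marker lists (vertical axes, log scale) in the libraries of each group (horizontal axes); digits give the replicate and lines the mean. KO tumors are highest in Ltb (30.5 to 48.4 FPKM) and in the neutrophil and monocyte sum (115 to 348 FPKM), and WT tumors are lowest in Il1b (0.876 to 2.35 FPKM). Most of the neutrophil and monocyte sum in tumors is the joint entry of Ly6a and Ly6c2.

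Some of the stellate cell and fibroblast markers, the collagen genes among them, were high in KO tumors too. Among the duct and progenitor markers Spp1 and Sox9 were higher in every KO tumor than in every KO liver. Stellate cell and fibroblast markers (10 genes) summed to 206 to 325 FPKM in KO tumors, 75.8 to 88.7 in WT tumors, 81.2 to 136 in KO livers and 49.6 to 76.8 in WT livers. Of the 10 genes, 6 lay higher in every KO tumor than in every WT tumor, against 13.8% of all tested genes. Col1a1 was among the 6, at 33.2, 60.1 and 14.2 FPKM in KO tumors, against 3.78 to 5.04 FPKM in WT tumors. Against KO livers 6 lay higher in every KO tumor (21.3% of all tested genes did) and 1 lower. The lower one was Lrat, at 1.29, 0.519 and 1.56 FPKM in KO tumors, against 1.85 to 2.89 FPKM in KO livers. Reln averaged 2.83 FPKM in KO tumors and 6.31 FPKM in WT tumors. Of the cholangiocyte and progenitor markers (8 genes), 2 lay higher in every KO tumor than in every WT tumor, against 13.8% of all tested genes. Their sum was 279 to 3540 FPKM in KO tumors, 80.2 to 654 in WT tumors, 75.6 to 85.9 in KO livers and 41.6 to 133 in WT livers. Nearly all of that sum was Spp1, the osteopontin gene, at 554, 3500 and 254 FPKM in KO tumors and 64.3 to 66.7 FPKM in KO livers. Sox9 was at 6.58, 11.5 and 2.83 FPKM in KO tumors and 0.862 to 1.29 FPKM in KO livers. The duct genes Krt19 (means 2.39 and 2.99 FPKM), Krt7 (1.18 and 1.09 FPKM) and Epcam (1.64 and 1.67 FPKM) overlapped between KO tumors and KO livers. The sums of endothelial markers (10 genes) overlapped in all groups, at 89.2 to 158 FPKM in KO tumors, 89.7 to 146 in WT tumors, 133 to 165 in KO livers and 131 to 152 in WT livers. Single genes moved in both directions: 3 of the 10 lay higher in every KO tumor than in every KO liver and 2 lay lower. Among all tested genes 21.3% lay higher, and the share that lay lower is not given here. Pecam1 was at 17.6, 30.3 and 23.5 FPKM in KO tumors, against 10.1 to 14.4 FPKM in KO livers. Clec4g was at 10, 1.08 and 31.9 FPKM, against 52.2 to 76.3 FPKM. In WT tumors 2 of the 10 lay below all WT livers and 0 above, against 23.8% and 18.5% of all tested genes. The part of these cells in the levels of Tnfrsf12a and the other genes was not tested.

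The 2 feedback inhibitors went different ways. Tnfaip3 (chromosome 10, 19000910 to 19015657, minus strand) encodes A20, a ubiquitin-editing enzyme that ends NF-kB signaling, and rose in KO tumors over KO livers. KO tumors had 5.06, 3.81 and 2.02 FPKM, against 0.640, 1.02 and 0.681 FPKM in KO livers. WT tumors had 1.42, 1.70 and 2.2 FPKM, against 0.778, 1.2 and 0.825 FPKM in WT livers. In both genotypes all tumors lay above all livers, and the KO tumors spread widely. The change in KO mice was 1.33 ± 0.27 (adjusted p = 0.0247), which lost its call in 5 of 6 fits that left out a library, the exception being the fit without KO tumor 3, with adjusted p of up to 0.0942, and without a filter on low values (adjusted p = 0.0581). That in WT mice was 0.52 ± 0.16 (adjusted p = 0.0674), which passed without WT tumor 1 (0.61, adjusted p = 0.0451) and with libraries rescaled to a common sum (0.82, adjusted p = 0.0269). No difference between KO and WT was called in liver (-0.12 ± 0.13, adjusted p = 0.539) or in tumor (0.69 ± 0.28, adjusted p = 0.262).

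Nfkbia (chromosome 12, 55489410 to 55492647, minus strand) fell in WT tumors relative to WT livers and varied least between groups, by 1.74-fold in the means. WT tumors had 16.9, 19.7 and 15.2 FPKM, against 22.9, 36.9 and 30.5 FPKM in WT livers. KO tumors had 21.5, 21.7 and 29.5 FPKM, against 24.4, 22.9 and 23.2 FPKM in KO livers. WT tumors were the lowest group and overlapped with no other. The fall in WT mice was -0.75 ± 0.19 (adjusted p = 0.0378). It was no longer called with libraries rescaled to a common sum (-0.47, adjusted p = 0.110), without a filter on low values (adjusted p = 0.0635) or in 5 of 6 fits that left out a library, the fit without WT liver 1 being the exception, with adjusted p of up to 0.125. KO tumors and KO livers overlapped (0.03 ± 0.18, adjusted p = 0.925). KO tumors lay above all WT tumors without passing the threshold (0.46 ± 0.19, adjusted p = 0.282), and KO livers overlapped with WT livers (-0.32 ± 0.17, adjusted p = 0.221).

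The subunit genes of the noncanonical pathway were higher in tumors than in livers, with a call for both in KO mice and for Relb in WT mice. Nfkb2 (chromosome 19, 46304320 to 46312385, plus strand) encodes p100, the precursor of p52. KO tumors had 8.94, 9.98 and 5.70 FPKM, against 3.46, 3.01 and 2.56 FPKM in KO livers. WT tumors had 5.30, 5.63 and 7.20 FPKM, against 2.75, 4.99 and 4.57 FPKM in WT livers. All tumors lay above all livers of both genotypes. The change was 1.17 ± 0.22 in KO mice (adjusted p = 0.0212) and 0.48 ± 0.21 in WT mice (adjusted p = 0.146), and that in WT mice passed with libraries rescaled to a common sum (0.79, adjusted p = 0.0345). KO and WT overlapped in liver (-0.33 ± 0.20, adjusted p = 0.277) and in tumor (0.37 ± 0.23, adjusted p = 0.464). Exons of AC114539.1 and Psd overlap those of Nfkb2 in the annotation, and without strand their reads cannot be told apart.

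Relb (chromosome 7, 19606217 to 19629438, minus strand) encodes RelB, the partner of p52. KO tumors had 6.07, 7.25 and 2.91 FPKM, against 1.52, 1.17 and 1.08 FPKM in KO livers. WT tumors had 2.54, 3.12 and 2.84 FPKM, against 0.563, 1.71 and 1.30 FPKM in WT livers. As for Nfkb2, all tumors lay above all livers, and KO tumor 3 lay within the range of the WT tumors. Relb rose by 1.44 ± 0.29 in KO mice (adjusted p = 0.0239) and by 0.84 ± 0.21 in WT mice (adjusted p = 0.0386). In KO mice both Relb and Nfkb2 lost their calls when KO tumor 1 or any 1 of the KO livers was left out, with adjusted p of up to 0.0932 for Relb and 0.0882 for Nfkb2, and without a filter on low values (adjusted p = 0.0586 for Relb and 0.0516 for Nfkb2). In WT mice Relb lost its call without WT liver 1, WT liver 3, WT tumor 2 or WT tumor 3, with adjusted p of up to 0.103. It was also lost with a pseudocount of 0.1 (adjusted p = 0.0518), without a filter (adjusted p = 0.0723) and in the fit of all 12 libraries (adjusted p = 0.0708). KO and WT overlapped in liver (0.07 ± 0.21, adjusted p = 0.818), a difference near 0 that turned negative without KO liver 1 or WT liver 1, and in tumor (0.67 ± 0.29, adjusted p = 0.287).

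Birc3 (chromosome 9, 7848699 to 7873186, minus strand) encodes cIAP2, a ubiquitin ligase that binds TRAF2 below TNF family receptors. KO tumors had 9.26, 8.43 and 5.22 FPKM, against 3.78, 3.98 and 5.02 FPKM in KO livers. WT tumors had 5.62, 4.56 and 3.99 FPKM, against 3.19, 2.81 and 2.71 FPKM in WT livers. All WT livers lay below every other library. Birc3 rose in WT tumors over WT livers by 0.54 ± 0.14 (adjusted p = 0.0444), and each of the 6 fits that left out a library lost that call, with adjusted p of up to 0.136. A pseudocount of 5, no filter and the fit of all 12 libraries lost it as well (adjusted p = 0.0511, 0.0822 and 0.0948). In KO mice the change of 0.69 ± 0.23 was not called (adjusted p = 0.0819), although all tumors lay above all livers, and it passed without KO tumor 3 (0.91, adjusted p = 0.0159). Neither KO liver against WT liver (0.42 ± 0.14, adjusted p = 0.0694, no overlap) nor KO tumor against WT tumor (0.57 ± 0.23, adjusted p = 0.270) passed.

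Traf1 (chromosome 2, 34941750 to 34961772, minus strand), an adaptor of TNF receptor 2 complexes, reached 1 FPKM in 2 libraries and was not tested. KO livers had 0.368, 0.280 and 0.448 FPKM, against 0.0736, 0.545 and 0.186 FPKM in WT livers. KO tumors had 0.900, 1.37 and 0.338 FPKM, against 0.482, 0.329 and 1.10 FPKM in WT tumors. All 4 groups overlapped with their neighbours in the order of means.

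Set side by side, KO and WT livers differed in few of the 8 tested genes other than Tnfrsf12a. Only Il1b was called, and it was lower in KO livers. Of all 11671 genes, 18.1% were called in this comparison and 8.77% were called lower. Groups did not overlap for Il1b, lower in every KO liver as were 20.7% of all genes, or for Birc3, higher in every KO liver as were 21.9%. The median change of the 8 was -0.22, against 0.03 for all genes. Without KO liver 1, 3 of the 8 were called, because Tnfrsf1b and Ltb were added, and none was called without KO liver 2, KO liver 3, WT liver 1 or WT liver 3.

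Between KO and WT tumors all 9 tested genes were higher on average in KO tumors, with a median change of 0.67, against 0.02 for all genes. None passed limma's threshold, in a comparison where 0.0771% of all genes (9 genes) were called. At an unadjusted p below 0.05 there were 6 of the 9, among 2058 genes in all. Tnfrsf1b, Nfkbia, Il1b and Ltb, 4 of the 9, were higher in every KO tumor than in every WT tumor, as were 13.8% of all genes. A fit that drew its spread from all 12 libraries called Il1b (adjusted p = 0.0151) and Ltb (adjusted p = 0.00711), among 1017 genes.

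KO tumors exceeded KO livers on average in all 8 tested genes other than Tnfrsf12a, and 4 of the 8 were called higher (Ltb, Nfkb2, Relb and Tnfaip3), where 14.3% of all genes were called and 9.09% were called higher. These 4 and Birc3, 5 in all, were higher in every KO tumor than in every KO liver, as were 21.3% of all genes. The median change was 0.93, against -0.02 for all genes. Without KO tumor 3, 6 of the 8 were called, with Birc3 and Il1b added, and Ltb alone was called when KO tumor 1 or any 1 of the KO livers was left out, or without a filter on low values. With libraries rescaled to a common sum, Tnfrsf1b was called as well (1.02, adjusted p = 0.0406).

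WT tumors differed from WT livers in both directions. Ltb, Relb and Birc3 were called higher and Il1b, Tnfrsf1b and Nfkbia lower, 6 of the 8 genes other than Tnfrsf12a, where 17.0% of all genes were called, 8.01% higher and 8.96% lower. The median change of the 8 was 0.50, against -0.04 for all genes. All WT tumors lay above all WT livers for 5 of the 8 and below them for 3, as they did for 18.5% and 23.8% of all genes. No gene of the 8 was called without WT liver 3, and 3 were called without WT tumor 2 or without WT tumor 3. The comparisons share groups of libraries, so their counts are not independent of each other.

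The KO effect in tumor minus that in liver was positive for all 8 tested genes other than Tnfrsf12a, with a median of 0.80, against 0.02 for all genes. Il1b passed the threshold, 1 of the 8, where 2.08% of all genes did and 1.15% did in that direction. Rescaling to a common sum moved the median of all genes to 0.14, and the higher and lower calls from 134 and 109 to 76 and 39. No gene of the 8 passed in the 7 fits named above for Il1b, and 3 passed without KO tumor 3, with Tnfrsf1b and Tnfaip3 added.

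**Figure D3:**
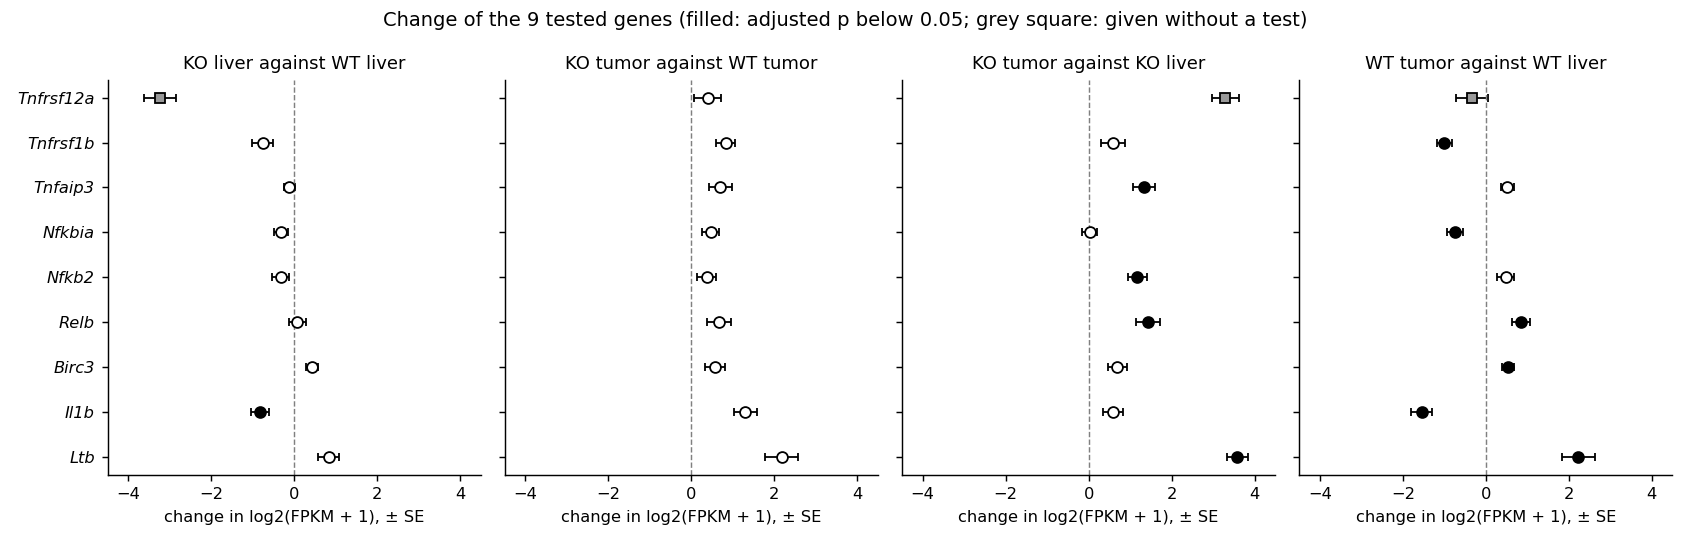
Change in log2(FPKM + 1) (horizontal axes; bars are ± SE) of the 9 tested genes in the 4 comparisons; filled points passed an adjusted p of 0.05, and grey squares mark Tnfrsf12a where its liver libraries led to the list. All 9 changes between KO and WT tumors lie above 0 with none filled, and WT tumors against WT livers have filled points on both sides, from -1.55 for Il1b to 2.23 for Ltb.

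Some libraries stood out across the genes. KO tumor 3 had the lowest value of its group for 8 of the 10 genes and the highest for the other 2, Tnfrsf1b and Nfkbia. In WT liver, replicate 2 had the highest value for 7 genes and replicate 1 the lowest for 7. Replicates of WT tumors shared these places evenly, with each the highest for 3 or 4 genes.

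The genes with the profile most like that of Tnfrsf12a over the 12 libraries were Btg3, Abhd2, Tubb6, Srxn1 and Plscr1. Likeness was the root mean square difference of log2(FPKM + 1) after centring each gene on its own mean, over 6410 genes with 1 name and a mean of at least 5 FPKM, so the 4 groups and all libraries enter it. The difference was 0.51 for Btg3, an antiproliferative gene of the BTG/TOB family, 0.56 for Abhd2, a lipid hydrolase, 0.60 for Tubb6, a beta tubulin, 0.73 for Srxn1, the sulfiredoxin that restores oxidized peroxiredoxins, and 0.76 for Plscr1, a phospholipid scramblase. Btg3 had 1.14, 1.03 and 0.750 FPKM in KO livers, against 3.88, 13.4 and 6.99 FPKM in WT livers, and 11.2, 5.87 and 5.94 FPKM in KO tumors, against 8.72, 7.81 and 7.20 FPKM in WT tumors. Like Tnfrsf12a, Btg3 was lowest in all KO livers and highest in WT liver 2. It was chosen for its likeness over these same libraries, so the shared pattern is no separate result. Srxn1 had 10.9, 11.2 and 16.1 FPKM in KO livers, against 40.6, 263 and 93.9 FPKM in WT livers. The other genes of the list that reached a mean of 5 FPKM were less alike. Nfkb2 came at rank 74 of the 6410 genes with a difference of 1.13, Tnfrsf1b at 1091, Nfkbia at 2156 and Ltb at 5674. Tnfaip3, Relb, Birc3, Traf1 and Il1b had lower means and were not compared.

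**Figure D4:**
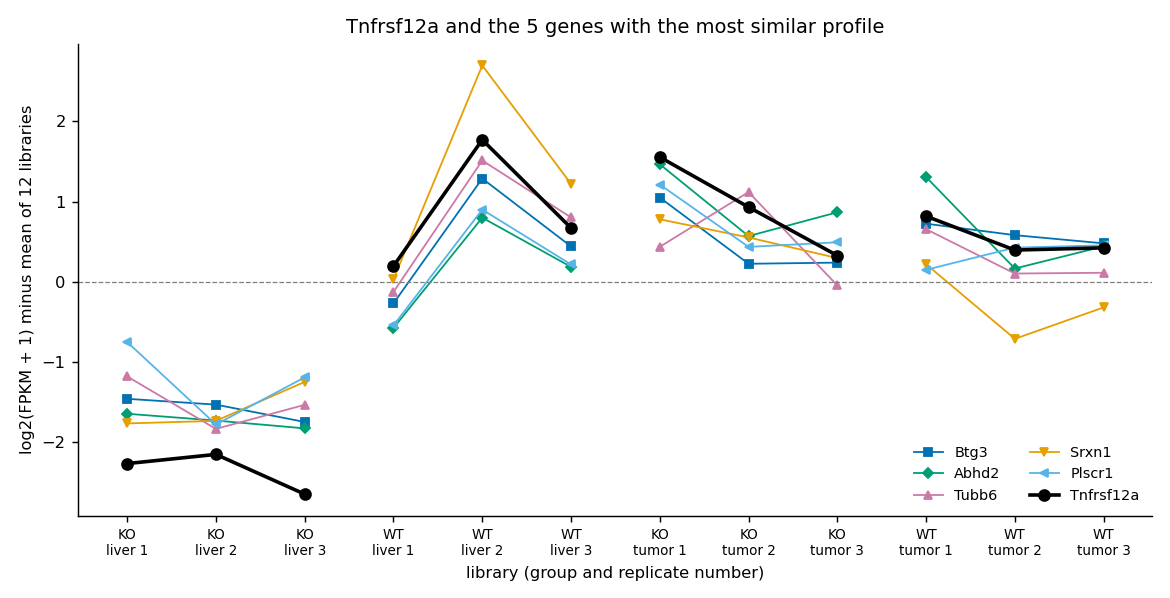
Log2(FPKM + 1) minus the mean of 12 libraries (vertical axis) in each library (horizontal axis) for Tnfrsf12a and the 5 genes most like it; lines join libraries of a group. All 6 genes lie below 0 in the 3 KO livers, and 4 of them, Tnfrsf12a among these, are highest in WT liver 2 and the other 2 in KO tumor 1. The 5 genes were chosen for their likeness over these same libraries.

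The wider pathway was described with 7 lists of 105 genes, of which 83 were tested; counts below leave out the 9 tested genes above and cover the other 74. KO and WT livers differed in 1 higher and 9 lower calls (13.5% of the 74, against 18.1% of all genes). The lower ones included the interleukin 1 receptor chains Il1r1 (9.54 ± 6.94 FPKM in KO livers and 59.3 ± 37.3 in WT livers, log2 change -2.51, adjusted p = 0.0414) and Il1rap (-0.47, adjusted p = 0.0344). Nfkb1, the p105 subunit gene, averaged 5.41 ± 0.40 FPKM in KO livers and 12.4 ± 4.37 FPKM in WT livers (-1.01 ± 0.24, adjusted p = 0.032). Cxcl1, a neutrophil chemokine, averaged 20.5 ± 19.9 FPKM in KO livers and 163 ± 90.6 FPKM in WT livers (-3.22, adjusted p = 0.0345). Bcl3, a nuclear IκB protein (-1.51), Bcl2l1, which encodes the survival protein Bcl-xL (-1.03), Map3k7, which encodes TAK1 (-0.77), Traf3, a brake on the noncanonical pathway (-0.50), and the entry of Irak1, an IL-1 receptor kinase listed with 2 microRNA genes (-0.79), were lower too. Nfkbie, the gene of IκBε, was the higher call (0.52, adjusted p = 0.0299). Each of these 10 calls was lost in at least 1 fit that left out a library, with the highest adjusted p at 0.143 for Bcl3; among these fits the Irak1 entry was lost only without WT liver 3 (adjusted p = 0.0512). Without a filter on low values Il1r1, Traf3, Bcl3, Nfkb1, Cxcl1 and Bcl2l1 lost their calls (adjusted p of 0.0582 to 0.0872), and in the fit of all 12 libraries Il1rap and Nfkbie did (0.339 and 0.219). Il1rap was no longer called with libraries rescaled to a common sum, nor Bcl3 with a pseudocount of 0.1 or a mean of 5 FPKM or more.

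Between KO and WT tumors 2 of the 74 genes were called (2.7%, against 0.0771% of all genes). Cd14, a coreceptor of Toll-like receptor 4 on myeloid cells, averaged 51.3 ± 5.15 FPKM in KO tumors and 9.09 ± 2.79 FPKM in WT tumors (2.40, adjusted p = 0.0306). Ier3, an early response gene induced by NF-kB, averaged 26.2 ± 7.82 FPKM in KO tumors and 2.99 ± 0.37 FPKM in WT tumors (2.74, adjusted p = 0.0306). Cd14 lost its call in 5 of 6 fits that left out a library and Ier3 in 4 of 6, with adjusted p of up to 0.131 and 0.145; Cd14 was kept without KO tumor 3 and Ier3 without KO tumor 1 or KO tumor 3. Both were lost without a filter on low values (adjusted p = 0.103).

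KO tumors exceeded KO livers in 17 of the 74 genes and lay below them in 4 (28.4% called, against 14.3% of all genes). Among the 17, Cd40, Map3k8 and Plau reached 1 FPKM in at least 3 libraries only through the KO tumors. Their entry into the count therefore depended on the values compared. Target genes made up 10 of the 17, out of 24 tested, with none lower. Lcn2, which encodes the iron-binding acute phase protein lipocalin 2, averaged 2525 ± 1231 FPKM in KO tumors and 70.8 ± 56 FPKM in KO livers (5.34, adjusted p = 0.00807). Ier3 (3.35) and the adhesion molecule gene Vcam1 (2.68) rose with it. Some of the macrophage, neutrophil, monocyte, stellate cell and fibroblast markers given above were high in the same libraries, and their part in these values was not tested. The receptor genes Cd14 (3.66) and Tlr2 (1.46), the inhibitor Nfkbie (1.47) and the kinase Map3k8 (0.74) rose, while Il1rap (-1.79) and the IKK subunit genes Chuk (-0.67) and Ikbkg (-0.64) fell. Cd14, Ier3 and Lcn2 kept their calls in all 6 fits that left out a library; Vcam1 was lost without KO liver 2 (adjusted p = 0.0504), and Tlr2, Nfkbie, Map3k8, Il1rap, Chuk and Ikbkg were lost when any 1 of the KO livers was left out. Without a filter Il1rap, Map3k8, Chuk, Ikbkg and Nfkbie lost their calls (adjusted p of 0.0506 to 0.0700), as did Ikbkg with a pseudocount of 5 (adjusted p = 0.0536), and Chuk and Ikbkg were no longer called with a mean of 5 FPKM or more or with libraries rescaled to a common sum.

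WT tumors exceeded WT livers in 6 of the 74 genes and lay below them in 11 (23.0% called, against 17.0% of all genes). Tnfaip2, a TNF-induced gene (1.90), the interferon-induced chemokine gene Cxcl10 (1.66), Nfkbie (0.90), Traf5 (0.70) and the adaptor Tradd (0.50) were higher. Cxcl1 (-2.67), Il1r1 (-2.48), Bcl3 (-1.54), the IL-1 and Toll-like receptor adaptor Myd88 (-1.04), the death receptor Fas (-0.88), Ikbkg (-0.79), Il1rap (-0.77) and Chuk (-0.54) were lower. Tnfaip2 and Nfkbie kept their calls in all 6 fits that left out a library, and each of the others named here lost its call in at least 1, Cxcl10 only without WT liver 3 (adjusted p = 0.0585). Il1rap, Fas, Ikbkg and Chuk were no longer called with libraries rescaled to a common sum. Without a filter Il1r1, Traf5, Tradd, Chuk and Bcl3 lost their calls (adjusted p of 0.0584 to 0.0786), and in the fit of all 12 libraries Il1rap, Traf5, Tradd, Nfkbie and Cxcl1 did (adjusted p of 0.0505 to 0.122). A pseudocount of 5 lost the calls of Tradd and Chuk (adjusted p = 0.0522 and 0.0505). For the KO effect in tumor minus that in liver, 4 of the 74 genes were called, all positive (5.41%, against 2.08% of all genes). They were Cd14, Cd83, Csf1 and Ier3, named after their values were seen.

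The TWEAK gene Tnfsf12 is listed in 1 entry together with Tnfsf13 and Tnfsfm13, so its own level cannot be read. That entry was at 34.1, 17.7 and 28.7 FPKM in KO tumors, against 10.6, 8.40 and 9.55 FPKM in KO livers (1.36, adjusted p = 0.0207). It was at 36.0, 29.4 and 26.2 FPKM in WT tumors, against 6.79, 8.93 and 6.85 FPKM in WT livers (1.89, adjusted p = 0.00168). In both genotypes every tumor exceeded every liver, and the rise in WT mice kept its call in all 6 fits that left out a library, while that in KO mice lost it when KO tumor 1 or any 1 of the KO livers was left out. No difference between KO and WT was called in liver (0.31 ± 0.15, adjusted p = 0.179) or in tumor (-0.22 ± 0.27, adjusted p = 0.718). Tnf reached 1 FPKM only in KO tumor 1, at 7.03 FPKM, and was not tested. Rela, Traf2 and Birc2 averaged 26.3 to 34.7, 4.21 to 5.40 and 7.94 to 9.13 FPKM in the 4 groups and were called in no comparison. The noncanonical kinase gene Map3k14 averaged 2.61 ± 1.253 FPKM in KO tumors and 0.890 ± 0.226 FPKM in KO livers, with no overlap and no call (0.88 ± 0.27, adjusted p = 0.0691).

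**Figure D5:**
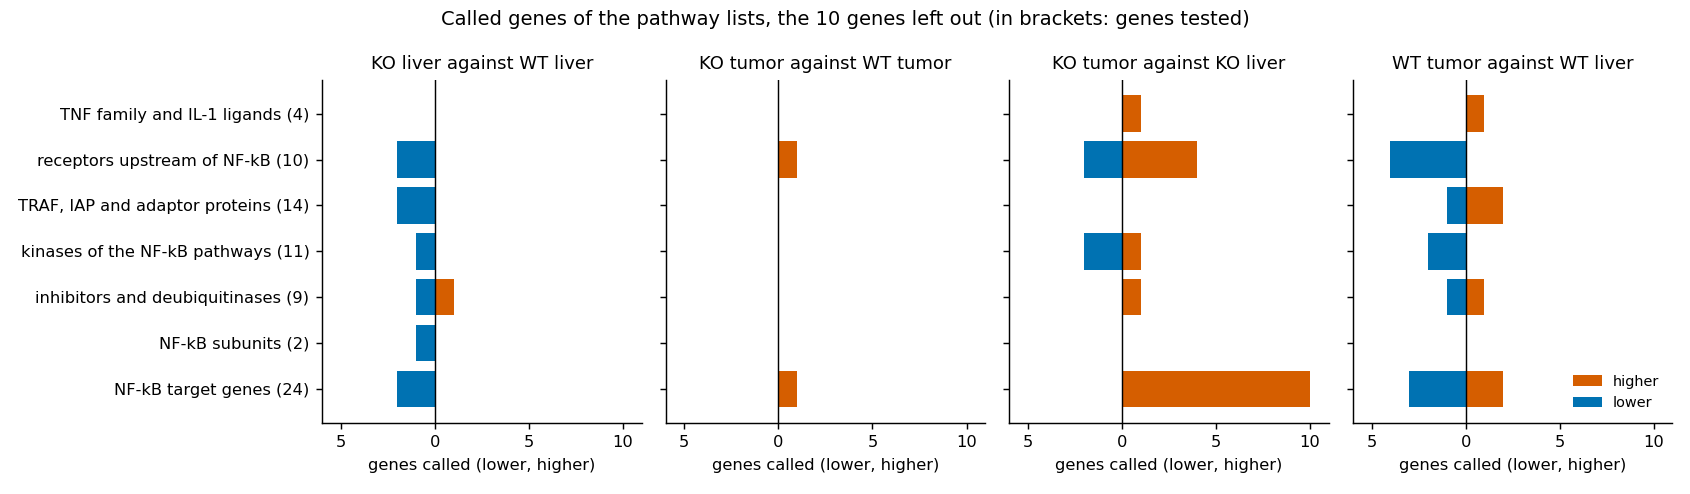
Number of called genes (horizontal axes: lower to the left of 0, higher to the right) in each of 7 pathway lists, without the 10 genes, in the 4 comparisons; brackets give the genes tested. The longest bar is that of the 10 target genes higher in KO tumors than in KO livers, where none of the 24 was lower. Plau, among the 10, was tested only through its values in KO tumors.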

How the data were processed

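RNA of 12 mouse liver libraries was analysed, 3 per group. The authors deposited 1 table of FPKM values per library; per the submitters' processing notes these came from TopHat2 2.1.1 and Cufflinks 2.2.1 on mm10, with options and gene models not given in the sources used here. Per the labels' protocols, polyadenylated RNA was selected and the libraries keep no strand. The deposited FPKM values were analysed as log2(FPKM + 1), which shrinks the changes of genes with low values. Entries with 1 FPKM or more in at least 3 of 12 libraries were tested (11671).

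Each comparison was fitted on its 6 libraries with limma 3.58.1 in R 4.3.3 (empirical Bayes with a variance trend, two-sided, Benjamini-Hochberg over all tested entries), and the difference of KO effects on all 12. The code was tested on simulated data. Alternatives were pseudocounts of 0.1 and 5, no filter, a mean of 5 FPKM or more, rescaling to a common sum (TPM), median-of-ratios scaling, 1 fit of all 12 libraries, a replicate block, leaving out each library and, chosen after seeing the data, the sum of both Tnfrsf1b entries.

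The 10 genes, the 7 pathway lists and the 8 marker lists were chosen with earlier results of these data known. Tnfrsf12a was left out of counts of called genes in comparisons with liver. Genes named are the 10, Setd2, Tnfsf12, 7 partner genes, up to 3 called genes with the smallest adjusted p per pathway list and comparison, and the 5 genes most like Tnfrsf12a. Gene positions come from GENCODE M21 on GRCm38, the assembly that mm10 names, and promoters from RefSeq, build GRCm38.p6.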

Additional observations from a re-analysis of the deposited data

Results flagged for a closer look

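The KO effect differed between tumor and normal liver for Il1b, 1 of the 8 tested genes other than Tnfrsf12a. The effect in tumors minus that in normal liver was 2.13 ± 0.37 on the log2 scale (limma, adjusted p = 0.0275). Il1b was higher in every KO tumor than in every WT tumor (5.36, 6.18 and 3.43 FPKM, against 2.35, 0.876 and 1.15 FPKM) and lower in every KO liver than in every WT liver (3.6, 3.21 and 2.13 FPKM, against 6.67, 4.51 and 6.99 FPKM). Its adjusted p was 0.0275 to 0.0587 over the 7 alternatives that kept all libraries, with the call lost without a filter on low values. Neutrophil and monocyte markers summed to 115 to 348 FPKM in KO tumors and 31.1 to 37.2 FPKM in WT tumors, and to 30.1 to 75.4 FPKM in KO livers and 15.7 to 40.4 FPKM in WT livers. Most of the sum in tumors was the joint entry of Ly6a and Ly6c2. The part of these cells in the Il1b difference was not tested.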

How the results depend on the processing

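Changes near 0 turned sign under few settings, and the cause was not tested. Relb in KO against WT liver was 0.07 and ran from -0.15 to 0.24 over the fits that left out a library. Nfkbia in KO tumor against KO liver was 0.03, -0.022 under median-of-ratios scaling, and -0.12 to 0.10 with a library left out. Tnfrsf12a in WT tumor against WT liver was -0.33, and -0.68 to 0.11 with a library left out.

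Counts of called genes moved with the settings, given here for the list (8 genes, or 9 with Tnfrsf12a between tumors) and then for all genes. KO against WT liver gave 1 and 2113. It gave 0 and 1355 without a filter, 0 of the 8 with a mean of 5 FPKM or more, 0 and 1144 in the fit of all 12 libraries, and 0 to 3 and 240 to 1964 with a library left out. KO against WT tumor gave 0 and 9. It gave 1 gene in all without a filter, 24 with TPM, 14 with median-of-ratios scaling, 2 and 1017 in the fit of all 12 libraries, and 0 of the 9 and 0 to 266 with a library left out. KO tumor against KO liver gave 4 and 1664. It gave 1 and 852 without a filter, 2 and 670 with a mean of 5 FPKM or more, 3340 genes in the fit of all 12 libraries, and 1 to 6 and 129 to 2981 with a library left out. WT tumor against WT liver gave 6 and 1981. It gave 3 of the 8 without a filter, 3 and 1263 with a mean of 5 FPKM or more, 1105 genes in the fit of all 12 libraries, and 0 to 5 and 454 to 2134 with a library left out. The difference of KO effects gave 1 and 243. It gave 0 and 56 without a filter, 0 and 133 with a mean of 5 FPKM or more, 2 and 115 with TPM, 2 of the 8 with a pseudocount of 0.1 or with both Tnfrsf1b entries summed, and 0 to 3 and 7 to 1368 with a library left out. The stricter filter tests fewer genes.

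The replicate numbers did not pair the libraries: of 18 same-number pairs, r of the deviations ran from -0.276 to 0.347, 3 exceeded 0.1, and 4 libraries' best partners had their own number. With the replicate block KO against WT liver gave 0 of the 8 and 153 genes, KO against WT tumor 0 genes, WT tumor against WT liver 1235, and the difference of KO effects 114. In KO against WT liver Il1b (adjusted p = 0.0929) and the 10 pathway genes named (0.0621 to 0.113) were then not called, nor were Cd14 and Ier3 between tumors (0.0804), Map3k8, Chuk and Ikbkg between KO tumor and KO liver, or Birc3, Traf5, Tradd and Chuk between WT tumor and WT liver. Depth is unknown, so counting error cannot be given, and Traf1 was too low to test. A left-out library leaves 2 in its group.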
